A study of Mus musculus with 78 samples.

Results

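The comparison described here is heroin dose escalation in mouse striatum: the change in gene expression from treatment day 1 to treatment day 12 under heroin, less the same change under saline. It rests on 12 of the 78 Illumina expression arrays of the study, 3 for each of heroin day 1, heroin day 12, saline day 1 and saline day 12, and it was examined over all 12371 genes with a usable probe. All mice were of the C57BL/6J strain and carried no genetic alteration named in the labels. Heroin or saline was injected 2 times a day over 12 days, with heroin doses climbing from 10 mg/kg at the start to 40 mg/kg at the end, so the day 12 group differs from the day 1 group in dose, in the number of injections and in elapsed time. Saline mice received the same injection schedule without drug. The labels used here give neither age nor sex nor the hour at which the mice were killed, and nothing beyond replicate numbers says that replicates were separate animals, so p-values measure only the spread between these samples.

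The striatum is the main input nucleus of the basal ganglia, and most of its neurons are GABAergic medium spiny neurons that carry dopamine receptors. Heroin is converted in the body to morphine, an agonist of the mu opioid receptor, and with repeated rising doses rodents develop tolerance and physical dependence. Opioids are also known to act on the release of glucocorticoid hormones, on body temperature and on daily activity rhythms, so genes of these systems are described as groups below. In bulk tissue, fewer cells of a type and less RNA per cell cannot be told apart.

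Median signals on the 12 arrays lay between 97.6 and 182 intensity units, and replicate arrays of a group correlated at 0.981 to 0.996 across genes. The number of arrays, 3 a group, limits the precision. Medium spiny neuron markers were strongly expressed: Drd1 lay between 12.48 and 12.76 and Drd2 between 10.87 and 11.43 (log2 signal) on the 12 arrays. Heroin day 12 replicate 2 stood apart: the means of 6 choroid plexus and 7 blood markers were 1.52 and 1.37 log2 units above their medians over the 78 arrays. The blood mean did not follow the haemoglobin gene Hba-a1, whose levels were alike on the 3 heroin day 12 arrays (below). Heroin day 12 replicate 3 and saline day 12 replicate 3 were low in cortical excitatory neuron markers, at -0.60 and -0.57. Saline day 1 replicate 3 was high in Th (9.13, against 7.66 to 8.62 on the other 11 arrays) and Scgn (8.89, against 6.77 to 7.97), which encode tyrosine hydroxylase and the calcium-binding protein secretagogin. Every day 1 array lay at position A of its slide and every day 12 array at position C. Position and day therefore cannot be told apart within heroin or within saline alone, whereas a position effect common to both cancels in the comparison of their changes. Slides do not cancel in this way: heroin day 12 and saline day 1 shared their slides and enter that comparison with the same sign.

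Below, a level is a log2 quantile-normalized signal on one array. A change is a log2 difference from a linear model (limma) of all 78 arrays with a term for each slide, given with its standard error (SE) and a p-value adjusted over all 12371 genes by the Benjamini-Hochberg method, with 0.05 as the threshold. The heroin change is day 12 minus day 1, and the interaction is the heroin change less the saline change. A change of 1 is a doubling.

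No gene passed the threshold for the interaction by limma (0% of 12371 genes called), and the lowest adjusted p was 0.170. At an unadjusted p under 0.05 there were 363 genes with a positive interaction (2.93%) and 379 with a negative one (3.06%), together 742 or 6.00% of genes. When changes of known size were simulated with the residual spread of these data, the same fit recovered 14% of genes changed by 0.5 log2 units in the interaction, 91% of those changed by 1 and 98% of those changed by 1.5. The simulation gave 200 genes an equal change, in heroin day 12 alone, with independent normal noise and no other group differences. With fewer changed genes the adjustment is stricter, so these shares do not say how often a lone gene would be found. The genes nearest to the threshold are therefore given as values, with no claim for any one of them.

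On the positive side the smallest p-value belonged to Ciart, a repressor within the circadian clock that opposes the activator pair CLOCK and BMAL1. Ciart levels were 9.79, 9.27 and 9.30 on the heroin day 1 arrays and 10.50, 10.03 and 10.54 on the heroin day 12 arrays. They were 9.68, 9.23 and 9.42 on saline day 1 and 9.42, 9.08 and 9.42 on saline day 12. All 3 heroin day 12 arrays lay above the other 9 arrays, which overlapped each other. The interaction of Ciart was 1.00 (SE 0.211, adjusted p = 0.170), a fold of 2.00, and its other 2 probes gave 0.83 and 1.01. It passed the threshold in 2 of 30 alternative fits, with array weights (adjusted p = 0.0412) and without heroin day 1 replicate 1 (adjusted p = 0.0306).

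The RefSeq promoter of Ciart is shown because the protein works in the clock loop whose activators bind E-boxes. The window runs from 250 bases before the transcription start to 50 after it on the minus strand of GRCm38.p6 (chr3:95882179-95882478), with each CACGTG, the canonical E-box, in capitals; the sequence reads the same on both strands.
Ciart: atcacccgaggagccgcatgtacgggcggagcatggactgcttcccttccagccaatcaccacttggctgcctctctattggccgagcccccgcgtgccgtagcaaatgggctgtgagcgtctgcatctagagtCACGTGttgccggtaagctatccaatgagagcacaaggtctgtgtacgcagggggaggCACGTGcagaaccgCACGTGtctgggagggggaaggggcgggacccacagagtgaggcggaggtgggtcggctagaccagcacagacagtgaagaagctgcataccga
It holds 3 CACGTG matches, which begin at -116, -58 and -44 relative to the start site. Among the tested genes with a promoter in the table, 11.3% hold at least 1 such match in a window of this length. Of the 22 genes higher under heroin on day 12 (below), 3 hold one, Arrdc4, Ciart and Tctex1d2, which is 13.6%. Of the 14 clock genes with a window, Ciart, Per1 and Tef hold one. A match is a description of these letters and not evidence of binding.

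1700093K21Rik, a gene known only by its RIKEN clone name, had an interaction of 1.15 (SE 0.248, adjusted p = 0.170). Its levels were 6.93, 6.87 and 7.02 on heroin day 1 and 7.79, 7.35 and 7.93 on heroin day 12, against 7.22, 7.19 and 7.41 on saline day 1 and 7.16, 7.31 and 7.27 on saline day 12. The heroin day 1 arrays lay below all other arrays, and on day 12 heroin lay above saline, so both days entered the difference. It passed the threshold with array weights (adjusted p = 0.0412) and without heroin day 12 replicate 2 (adjusted p = 0.0136). Its interaction was 0.79 with no slide term. Cirbp encodes a cold-inducible RNA-binding protein whose transcript is known to rise at mildly lowered temperature. Its levels were 9.96, 10.18 and 9.94 on heroin day 1, 10.59, 10.71 and 11.002 on heroin day 12, 10.13, 10.22 and 10.26 on saline day 1, and 10.32, 9.81 and 10.32 on saline day 12. Every heroin day 12 array exceeded the other 9, and the interaction of Cirbp was 0.93 (SE 0.234, adjusted p = 0.448). Cirbp passed the threshold only without saline day 12 replicate 3 (1.201, adjusted p = 0.0273), among the 30 alternatives. The interaction of Cirbp was 0.79 with no slide term.

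The other 5 genes made up the top 8 of this side. Bid, a pro-apoptotic member of the Bcl-2 family, had an interaction of 0.82, the chemokine gene Ccl17 0.86, Cstad 0.62, Klhl40, a kelch-repeat gene known from muscle, 0.92, and Nudcd3 0.48, with adjusted p from 0.448 to 0.494. Cstad levels stood at 7.99, 7.41 and 8.03 on heroin day 12 and between 7.20 and 7.40 on the other 9 arrays, so heroin day 12 replicate 2 was only just above the rest. For Klhl40 a single high array, saline day 1 replicate 3 at 7.85, entered the difference, and the other 11 arrays lay between 6.89 and 7.56. A second probe of Nudcd3 gave -0.21. The interactions of Bid, Ccl17, Cstad, Klhl40 and Nudcd3 were smaller with no slide term, at 0.53, 0.48, 0.55, 0.69 and 0.33.

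On the negative side the smallest p-value belonged to Elavl1, which encodes HuR, an RNA-binding protein that stabilises AU-rich transcripts. Elavl1 levels were 10.24, 10.25 and 10.25 on heroin day 1 and 9.68, 9.86 and 9.81 on heroin day 12. They were 9.99, 10.23 and 10.01 on saline day 1 and 10.29, 10.26 and 10.29 on saline day 12. The heroin day 12 arrays lay below the other 9, while saline day 12 lay above saline day 1. The interaction of Elavl1 was -0.71 (SE 0.160, adjusted p = 0.209).

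The other 7 were Ccdc43 (-0.60), Gpr89, a channel gene of the Golgi (-0.58), Dleu2, a non-coding host gene of microRNAs (-0.57), Traf2, an adaptor of tumour necrosis factor receptors (-0.54), Sertad3 (-0.51), Zmynd10, needed for the assembly of ciliary dynein (-0.65), and Pds5a, a cohesin regulator (-0.50). Their adjusted p ran from 0.443 to 0.494. For Zmynd10 no pair of groups was without overlap: levels were 7.92, 7.54 and 7.63 on heroin day 1, 7.69, 7.53 and 7.52 on heroin day 12, 7.68, 7.42 and 7.69 on saline day 1, and 7.65, 7.78 and 7.72 on saline day 12. Gpr89 levels were 9.40, 9.54 and 9.46 on heroin day 1 and 9.36, 9.24 and 9.16 on heroin day 12, without overlap, and the saline arrays lay between 9.36 and 9.55. With no slide term the interactions of Gpr89, Sertad3 and Zmynd10 shrank to -0.26, -0.19 and -0.24, so much of each came with the slide adjustment. Those of Ccdc43, Dleu2, Traf2 and Pds5a also shrank, to -0.31, -0.37, -0.33 and -0.30, while that of Elavl1 was -0.67.

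**Figure D1:**
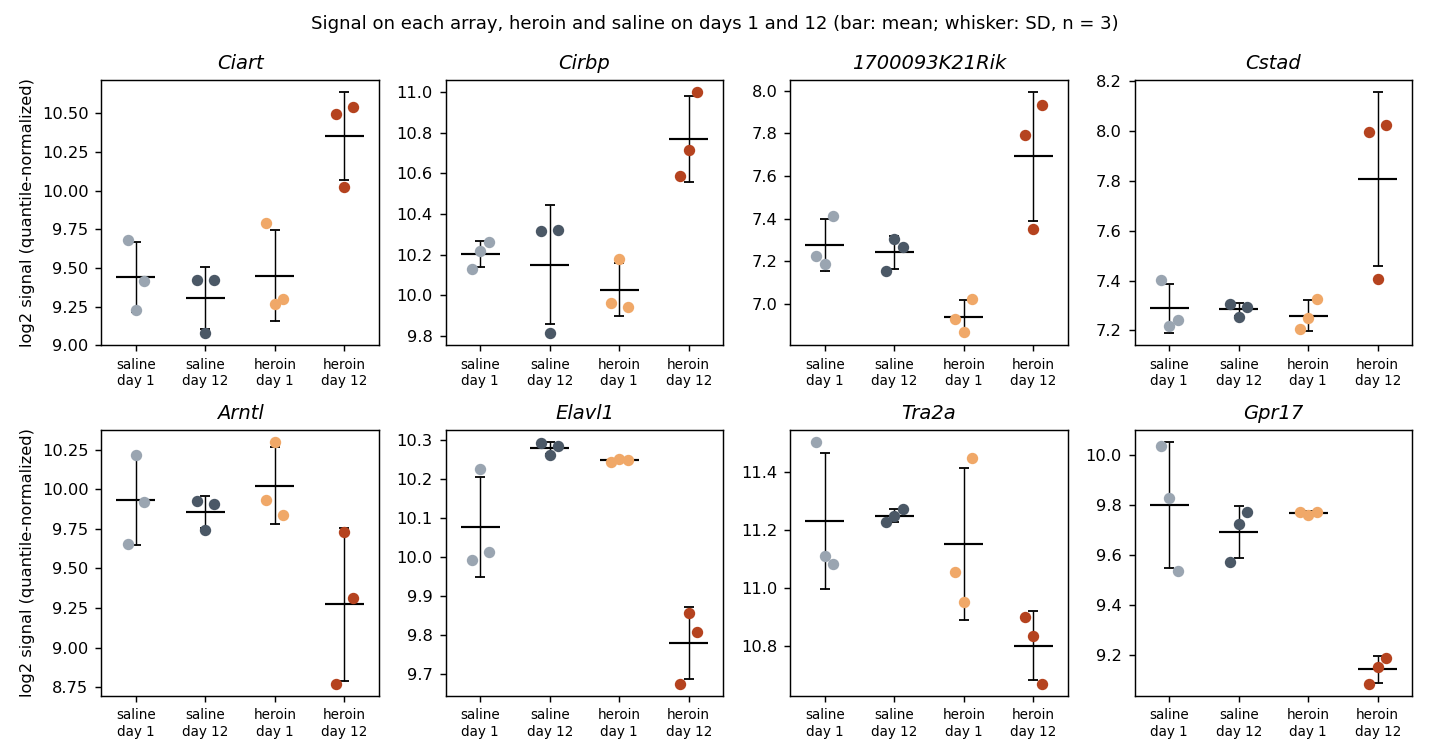
Log2 quantile-normalized signal (y axis) of 8 genes on each of the 12 arrays, in the groups saline day 1, saline day 12, heroin day 1 and heroin day 12 (x axis). Points are arrays, in the order of replicates 1 to 3, horizontal bars are means and whiskers SDs (n = 3). The heroin day 12 arrays lie above all others for Ciart and Cirbp and below all others for Elavl1 and Gpr17.

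The heroin change from day 1 to day 12 on its own gave 22 genes that rose (0.178% of 12371) and 18 that fell (0.146%). In the same simulation, with 200 changed genes, the fit recovered 73.5% of heroin changes of 0.5 log2 units. The saline change over the same interval called 2 genes (0.0162%). All 22 genes that rose and all 18 that fell had an interaction of the same sign, with an unadjusted p under 0.05 for 20 and 15 of them. The interaction contains the heroin change, so this is no independent evidence. Under saline, 11 of the 22 and 11 of the 18 moved the same way as under heroin, with median changes of -0.00 and -0.07, against medians of 0.52 and -0.44 under heroin. The genes were chosen by the heroin change, which bears on that contrast.

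The number of genes called under heroin rested on single arrays. Without heroin day 12 replicate 3, the array low in cortical markers, 2 genes passed, Ciart (0.83, adjusted p = 0.00809) and Gpr17 (-0.81, adjusted p = 0.00809), and without heroin day 1 replicate 3 there were 11. Without heroin day 12 replicate 2, the array high in choroid plexus and blood markers, 54 passed, 29 of them among the 40. With array position as a further term no gene passed, and 563 had an unadjusted p under 0.05; on the 12 arrays alone, with no slide term, none passed either, with 1257 at an unadjusted p under 0.05.

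**Figure D2:**
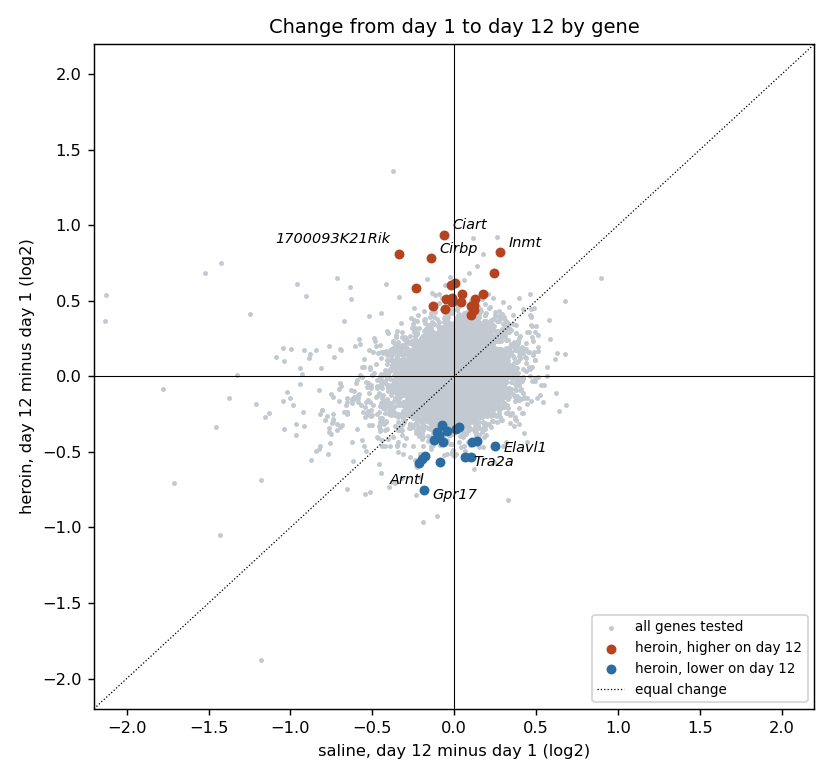
Log2 change from day 1 to day 12 under saline (x axis) and under heroin (y axis) for each of 12371 genes (grey), with the 22 genes that rose under heroin in red and the 18 that fell in blue. The dotted line marks equal change in both. On the heroin axis the called genes lie away from 0 by the rule that chose them, at 0.41 to 0.94 and at -0.75 to -0.32. On the saline axis they lie on both sides of 0, from -0.34 to 0.28 for those that rose and from -0.21 to 0.25 for those that fell.

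Among the genes that rose, Ciart led with a heroin change of 0.94 (SE 0.136, adjusted p = 0.000142), a fold of 1.91, and it passed in 28 of 30 alternatives. Inmt, which encodes indolethylamine N-methyltransferase, rose by 0.83 (SE 0.181, adjusted p = 0.0207), 1700093K21Rik by 0.81 (adjusted p = 0.00841) and Cirbp by 0.79 (adjusted p = 0.00703). Inmt levels were 8.52, 8.58 and 8.77 on heroin day 1 and 9.51, 9.24 and 9.41 on heroin day 12, and the saline arrays moved in the same direction, from 8.40, 8.57 and 8.77 to 8.95, 8.95 and 8.91. The saline days thus did not overlap either, and the interaction of Inmt was 0.54 (adjusted p = 0.830). 0610040B10Rik rose by 0.69, the lysosomal arylsulfatase gene Arsg by 0.62, Cstad by 0.60 and Bid by 0.58. Arrdc4 and Arrdc2, which encode alpha-arrestins, adaptors for ubiquitin ligases, rose by 0.54 and 0.52, and Pik3ip1, an inhibitor of phosphatidylinositol 3-kinase, by 0.49.

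Arrdc2 levels were 8.48, 8.31 and 8.59 on heroin day 1 and 8.80, 9.09 and 8.98 on heroin day 12, with saline between 8.35 and 8.71, so heroin day 12 lay above the rest. Bid levels rose from 7.72, 7.74 and 7.66 to 8.33, 7.93 and 8.13 under heroin, but saline day 1 reached 8.07. The RNA-binding protein gene Rbm11 rose by 0.52 and the cyclin gene Ccnl2, linked to pre-mRNA splicing, by 0.51. Ccnl2 and Fscn2 were dim and did not pass a stricter filter, at the 60th percentile of each array. Ccnl2 lay at 7.17 to 7.41 on heroin day 12 and 6.76 to 6.96 elsewhere, and Fscn2 at 7.24 to 7.37 and 6.76 to 7.07. For Fscn2 (0.55) and Fam120b (0.49) other probes of the gene gave -0.15 and between -0.06 and 0.35. Over the 22 genes, 21 had no overlap between the heroin day 12 and heroin day 1 arrays, against 9.22% of all genes with heroin day 12 above, as the rule that chose them favours. Against saline day 12, 20 of the 22 had heroin day 12 above without overlap, against 5.82% of all genes, which the choice by high heroin day 12 levels favours as well.

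Among the genes that fell, Gpr17, a receptor of oligodendrocyte precursors on their way to differentiation, fell by 0.75 (SE 0.130, adjusted p = 0.00226), a fold of 1.68. Its levels were 9.78, 9.76 and 9.77 on heroin day 1, 9.09, 9.15 and 9.19 on heroin day 12, 10.04, 9.83 and 9.54 on saline day 1, and 9.57, 9.73 and 9.77 on saline day 12. Heroin day 12 lay below all 9 other arrays. The 10 measured markers of oligodendrocyte precursors, Gpr17 among them, had a median heroin change of 0.06, with 6 above 0 and only Gpr17 called, and their mean level ran from -0.11 to 0.07 on heroin day 12 and from -0.05 to 0.02 on heroin day 1.

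Srpk1, a kinase of splicing factors rich in serine and arginine, fell by 0.57 (SE 0.117, adjusted p = 0.0104), from 10.79, 10.92 and 10.91 to 10.43, 10.52 and 10.27. Under saline Srpk1 went from 10.84, 10.72 and 10.86 to 10.67, 10.72 and 10.53, a change of -0.21. The interaction of Srpk1 was -0.36 (SE 0.182, adjusted p = 0.825). Tra2a, a splicing regulator, fell by 0.54 (SE 0.107, adjusted p = 0.00934), from 11.05, 10.95 and 11.45 to 10.90, 10.84 and 10.67. Tra2a was at 11.50, 11.11 and 11.08 on saline day 1 and 11.23, 11.25 and 11.27 on saline day 12, and with no slide term its interaction was -0.37 in place of -0.60. Elavl1 fell by 0.46 (SE 0.103, adjusted p = 0.0244).

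Traf2 fell by 0.44, Uhrf2, a ubiquitin ligase that binds modified cytosines, by 0.44, Dleu2 by 0.43, Inpp4a, an inositol polyphosphate phosphatase, by 0.53, and Klhl24 by 0.37. Of these, Uhrf2 and Klhl24 had other probes at -0.16 to 0.13 and -0.19 to -0.02, and the other probe of Inpp4a was at -0.18. Traf2 was dim, between 6.81 and 7.47 on the 12 arrays, and did not pass the stricter filter. Hdac5, a class II histone deacetylase that shuttles out of the nucleus with neuronal activity, fell by 0.42 (SE 0.0954, adjusted p = 0.0263). Its levels were 12.12, 12.06 and 12.14 on heroin day 1 and 11.74, 11.69 and 11.74 on heroin day 12, while all 6 saline arrays lay between 11.99 and 12.22, so heroin day 12 lay below the rest. It was the only one of 11 histone deacetylase genes called, and their median heroin change was -0.02. Of the 18 genes, 15 had heroin day 12 below heroin day 1 without overlap, against 5.53% of all genes, and 11 had heroin day 12 below saline day 12, against 4.81%, with the same reservation.

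The called clock genes were a repressor that rose and an activator that fell. In the loop, CLOCK and ARNTL (BMAL1) activate the Per and Cry genes, Ciart, Dbp and Bhlhe40, several of whose products repress the activators in turn. Of 16 measured clock genes, Ciart rose and Arntl fell under heroin, and the other 14 did not pass the threshold. Arntl levels were 9.93, 10.30 and 9.84 on heroin day 1, 8.77, 9.73 and 9.31 on heroin day 12, 9.66, 10.22 and 9.92 on saline day 1, and 9.92, 9.74 and 9.90 on saline day 12. Heroin day 12 lay below heroin day 1 and, by a narrow margin, below saline day 12, but its replicate 2 exceeded saline day 1 replicate 1. Arntl fell by 0.57 (SE 0.117, adjusted p = 0.0104) under heroin, and its interaction was -0.48 (SE 0.182, adjusted p = 0.740).

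Dbp, an output transcription factor of the clock, stood at 13.32, 13.22 and 13.05 on heroin day 1 and 13.65, 13.49 and 13.56 on heroin day 12, against 13.21, 13.10 and 13.14 on saline day 1 and 13.03, 12.95 and 13.00 on saline day 12. Heroin day 12 was above every other array, and the heroin change of Dbp was 0.31 (SE 0.147, adjusted p = 0.447). The interactions of Bhlhe40, Per2 and Per1 were 0.57, 0.48 and 0.31, with heroin changes of 0.18, 0.13 and 0.25, none past the threshold. The interaction of Bhlhe40 was 0.19 with no slide term. The median interaction of the 16 genes was 0.25 and their median heroin change 0.13, against 0.00 for all genes in both, but with no slide term the median interaction was -0.01.

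Genes known to respond to glucocorticoids had changes in both directions under heroin. Of 28 measured members, 17 had a heroin change above 0 and 11 below, 1 rose (Arrdc2) and none fell. Per1 is also on the clock list, and Mt1 and Mt2 on that of metallothioneins. The median heroin change was 0.17 and the median interaction 0.20, against 0.00 for all genes. Their mean level over the list was 0.14, -0.05 and 0.05 on heroin day 1 and 0.36, 0.11 and 0.34 on heroin day 12 (log2 units above the median of 78 arrays), and heroin day 12 replicate 2 lay below heroin day 1 replicate 1, so the days overlapped. Saline lay between -0.10 and 0.01 on both days.

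Plin4, a coat protein of lipid droplets, had the highest interaction of this list, at 1.23 (SE 0.399, adjusted p = 0.664). Its levels were 9.12, 8.48 and 8.53 on heroin day 1, 9.52, 9.11 and 9.41 on heroin day 12, 8.51, 8.17 and 7.95 on saline day 1, and 7.75, 7.78 and 7.74 on saline day 12. The heroin days overlapped, and the saline days did not: the slide-adjusted change was -0.64 under saline and 0.59 under heroin, neither past the threshold. Sgk1, a serum- and glucocorticoid-regulated kinase, stood at 12.07, 11.74 and 11.98 on heroin day 1 and 12.83, 12.34 and 12.91 on heroin day 12, with all saline arrays between 11.64 and 11.84. Its heroin change was 0.73 (SE 0.230, adjusted p = 0.157) and its interaction 0.59 (adjusted p = 0.884).

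Hif3a, a hypoxia-inducible factor subunit, stood at 8.32, 8.05 and 8.18 on heroin day 1 and 8.91, 9.14 and 9.65 on heroin day 12, and saline at 7.69, 8.19 and 7.91 and then 8.20, 8.25 and 8.24. Heroin day 12 was above all other arrays, and the heroin change of Hif3a was 0.92 (SE 0.250, adjusted p = 0.0812), with its other probes at 0.30 and -0.04. Fkbp5, a co-chaperone of the glucocorticoid receptor, stood at 9.31, 9.23 and 9.40 on heroin day 1, 9.66, 9.49 and 9.79 on heroin day 12, 9.15, 9.17 and 9.22 on saline day 1, and 9.26, 9.22 and 9.35 on saline day 12. Heroin lay above saline of the same day on both days, on day 1 by a narrow margin, and heroin day 1 overlapped saline day 12. Its interaction was 0.05 and turned negative in 2 alternatives. Cdkn1a, a cell-cycle inhibitor, had an interaction of 0.54 and Mt2, a metallothionein, of 0.75, while the sulfotransferase gene Sult1a1 was at 0.29, its heroin excess over saline being 0.42 on day 1 and 0.71 on day 12. None of these passed the threshold.

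Heat shock chaperones, which refold proteins and are induced by heat shock factor, lay lower under heroin on day 12. Of 17 measured members, 15 had a heroin change below 0 and 2 above, and 1 fell past the threshold (Chordc1), with a median of -0.20 against 0.00 for all genes. The median interaction was -0.22, and it was -0.23 with no slide term and -0.25 with median centring. The mean level over the list was 0.08, 0.04 and 0.09 on heroin day 1 and -0.29, -0.10 and -0.24 on heroin day 12, and between -0.04 and 0.16 under saline. Heroin day 12 replicates 1 and 3 lay lowest, and replicate 2, though higher, was below every other array.

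Chordc1 encodes a co-chaperone that binds HSP90. Its levels were 11.21, 10.99 and 11.10 on heroin day 1, 10.86, 10.48 and 10.42 on heroin day 12, 11.28, 11.16 and 10.88 on saline day 1, and 11.03, 10.89 and 10.79 on saline day 12. The heroin days did not overlap, but heroin day 12 replicate 1 lay within the saline day 12 range. Chordc1 fell by 0.55 (SE 0.132, adjusted p = 0.0435) under heroin, passed in 17 of 30 alternatives, and had an interaction of -0.35 (adjusted p = 0.877). Cryab, a small heat shock protein, stood at 11.09, 11.35 and 11.05 on heroin day 12 and at 11.56, 11.51 and 11.66 on heroin day 1, with an interaction of -0.76 (SE 0.241, adjusted p = 0.643). Hsph1, an HSP110 chaperone, stood at 12.76, 12.71 and 12.74 on heroin day 12, below the 12.82 to 13.12 of the other 9 arrays, with an interaction of -0.39 (adjusted p = 0.809). The interactions of Hspa8, the constitutive HSP70, and of Hspa1b, an inducible one, were -0.29 each, and that of Hspa1b was -0.05 with no slide term. Hspa1b lay between 6.97 and 7.49 on all 12 arrays, and its near-identical copy Hspa1a can share its signal.

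The promoter of Chordc1 is shown because it is the called member of this list, with matches to GAANNTTC, an inverted pair of the units bound by heat shock factor, in capitals (RefSeq, GRCm38.p6, chr9:18292017-18292316, plus strand, 250 bases before to 50 after the start; the motif is its own reverse complement).
Chordc1: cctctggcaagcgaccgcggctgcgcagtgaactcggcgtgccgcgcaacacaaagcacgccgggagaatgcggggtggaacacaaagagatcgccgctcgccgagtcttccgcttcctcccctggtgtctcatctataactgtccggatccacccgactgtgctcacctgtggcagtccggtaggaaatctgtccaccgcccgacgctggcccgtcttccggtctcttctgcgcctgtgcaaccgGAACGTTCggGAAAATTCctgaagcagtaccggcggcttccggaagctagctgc
It holds 2 matches beside the start site, beginning at -4 and 6. Of the 14 heat shock chaperone genes with a window in the table, 10 hold at least 1 match (71.4%), against 7.11% of the tested genes. None of the 22 genes that rose under heroin holds one, and of the 15 genes that fell and have a window, Chordc1 alone does. The list holds genes chosen as chaperones, many of them known targets of heat shock factor, so the share describes the list and not heroin.

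Chaperones of the endoplasmic reticulum showed a similar shift. Of 14 measured members, 11 had a heroin change below 0, and Xbp1, the transcription factor of the unfolded protein response, fell by 0.53 (SE 0.126, adjusted p = 0.0421). The median heroin change was -0.18 and the median interaction -0.12, with a saline median of -0.09. The mean level over the list was 0.03, -0.01 and 0.01 on heroin day 1 and -0.15, -0.16 and -0.21 on heroin day 12, and between -0.04 and 0.10 under saline, without overlap. Xbp1 levels were 11.89, 11.91 and 11.92 on heroin day 1 and 11.84, 11.52 and 11.42 on heroin day 12, but saline also went from 12.30, 12.10 and 11.86 to 11.66, 11.81 and 11.92. The interaction of Xbp1 was -0.35, and -0.02 with no slide term. Pdia4, a disulfide isomerase, had an interaction of -0.33, and Hspa5, the main chaperone of this compartment, of 0.21, which was -0.07 with no slide term. Herpud1, with the smallest unadjusted interaction p of this list, went the other way. Its interaction was 0.34, also by its other probe, and its heroin change 0.08, or 0.05 by the other probe. Of the 14 interactions, 10 were below 0 and 4 above.

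**Figure D3:**
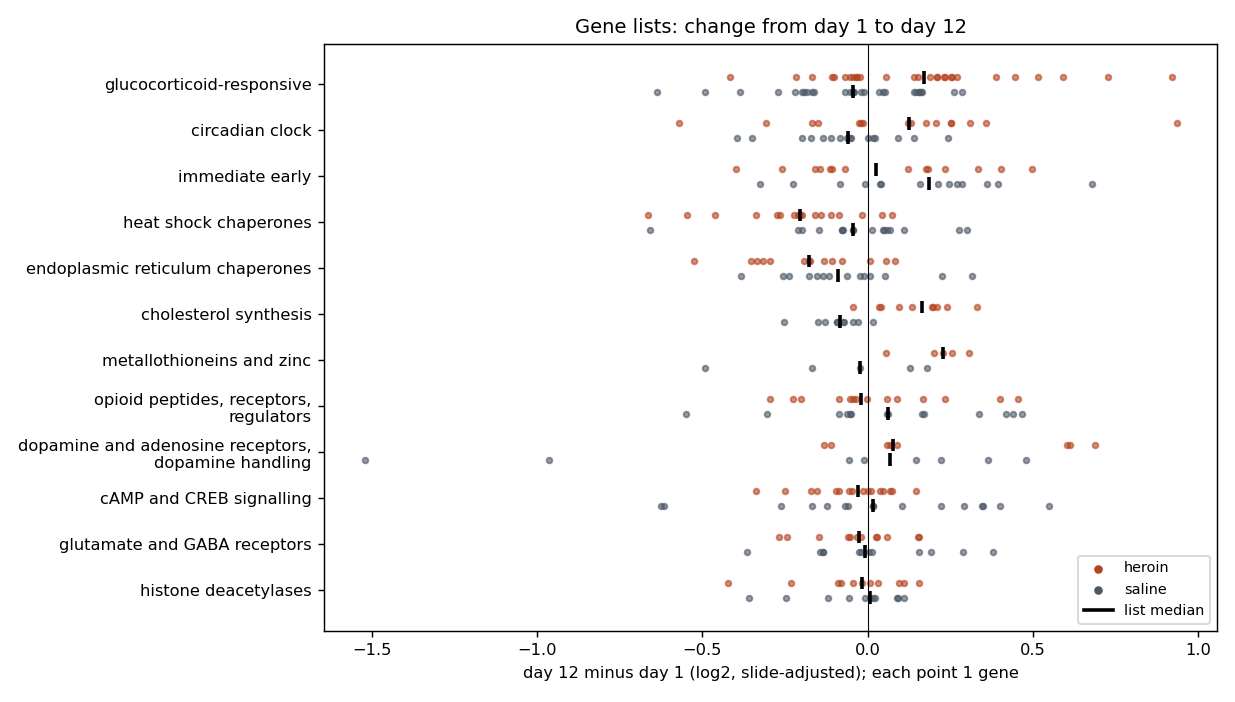
Change from day 1 to day 12 (x axis, log2, slide-adjusted) of each measured gene of 12 lists (y axis), under heroin (red) and saline (grey), with black bars at the list medians. Heat shock and endoplasmic reticulum chaperones lie mostly left of 0 under heroin (medians -0.20 and -0.18) and metallothionein and zinc genes right of 0 (0.23).

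Genes of cholesterol synthesis had 9 of 10 heroin changes above 0 with a median of 0.16, and all 10 interactions above 0 with a median of 0.24, though none was called. The median interaction was 0.13 with no slide term. In levels without slide adjustment the list means of heroin day 12, at 0.05, 0.09 and -0.08, overlapped every other group, and replicate 3 was the lowest of the 12 arrays. Sqle, squalene epoxidase, and Fdps, farnesyl diphosphate synthase, had interactions of 0.46 and 0.35 (adjusted p = 0.775 and 0.803). For both, heroin day 12 replicate 1 was the highest of all 12 arrays, at 11.01 and 11.47, and replicates 2 and 3 lay within the range of the others. The other probe of each gave an interaction of 0.26 for Sqle and -0.05 for Fdps. All 5 metallothionein and zinc genes had heroin changes above 0, with a median of 0.23 and none called. Their median interaction was 0.22, and 0.07 with no slide term.

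The opioid and dopamine systems of the striatum showed no called member. Of the 14 measured genes of opioid peptides, receptors and their regulators, 6 had a heroin change above 0 and 8 below, with a median of -0.02 and a median interaction of -0.05. The mu receptor gene Oprm1 has 1 probe, which did not pass the filter on low signals, so no value is given. Pdyn, which encodes prodynorphin, stood at 12.96, 12.94 and 13.15 on heroin day 1, at 13.56, 13.19 and 13.63 on heroin day 12, and between 12.66 and 13.08 under saline. Both heroin days lay above their saline days, and day 12 above day 1, in these unadjusted levels, but the slide-adjusted interaction was -0.07 (SE 0.489, adjusted p = 0.991), against 0.23 with no slide term. The other probe of Pdyn gave an interaction of -0.35, from changes of 0.34 under heroin and 0.69 under saline. Penk, proenkephalin, varied widely within groups, from 11.44 to 12.40 on heroin day 12, with an interaction of 0.12 (SE 0.605), or -0.12 with no slide term.

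The interactions of the dopamine receptor genes Drd1 and Drd2 were -0.28 and -0.42 with SEs of 0.602 and 0.562. Th had an interaction of 1.58 (SE 0.447, adjusted p = 0.516), and both heroin and saline entered the difference: its levels were 8.08, 8.62 and 9.13 on saline day 1, 7.75, 7.72 and 7.72 on heroin day 1, 8.42, 7.85 and 8.18 on heroin day 12, and 7.91, 7.66 and 7.95 on saline day 12. Heroin day 12 lay above heroin day 1 and saline day 12 below saline day 1, each without overlap. Slc6a3, the dopamine transporter, had an interaction of 2.21 (SE 0.747, adjusted p = 0.733), with saline day 1 replicate 1 at 8.64 and the other 11 arrays between 6.80 and 7.53. Both transcripts are made by dopamine neurons, whose cell bodies lie mainly outside the striatum. Scgn, high on the same saline day 1 replicate 3 as Th, had an interaction of 1.66 (adjusted p = 0.516). The interactions of Th, Slc6a3 and Scgn were 1.19, 1.02 and 1.16 with no slide term. With single arrays left out, that of Slc6a3 ran from 1.84 to 2.56.

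Immediate early genes, which neurons induce within minutes of strong activity, were 14 in number, with 7 heroin changes above 0, 7 below and none called. Their median interaction was -0.10, or -0.21 with no slide term. Fos levels were 8.94, 8.96 and 9.35 on heroin day 1, 9.15, 9.60 and 10.05 on heroin day 12, 9.73, 8.98 and 9.39 on saline day 1, and 10.54, 10.33 and 10.26 on saline day 12. Saline day 12 lay above the other 9 arrays, so Fos was lower under heroin than under saline on day 12 without overlap. The slide-adjusted interaction was -0.18 (SE 0.509, adjusted p = 0.981), from Fos changes of 0.68 under saline and 0.50 under heroin. With no slide term it was -0.49. Arc, an activity-regulated cytoskeletal gene, was likewise higher on saline day 12 (11.28, 11.66 and 11.12) than on heroin day 12 (10.50, 10.55 and 10.93). Its interaction was -0.09, or -0.55 with no slide term. Egr1 stood at 13.72, 13.96 and 13.92 on heroin day 12, below the 13.997 to 14.47 of the other 9 arrays, with an interaction of 0.08 that was -0.18 with no slide term. Egr2 and Homer1 had interactions of -0.55 and -0.30. Of 16 genes of cAMP and CREB signalling, 7 had heroin changes above 0 and 9 below, with a median of -0.03 and none called, and the phosphodiesterase gene Pde7b had an interaction of -0.60 (adjusted p = 0.744).

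Cell type markers were set beside these results. Of 13 medium spiny neuron markers, 12 had an interaction below 0, with a median of -0.36, beside a median saline change of 0.46 and a median heroin change of 0.06. With no slide term the median interaction was -0.13. The most negative were Gpr6, an orphan receptor gene (-0.65), and the phosphodiesterase gene Pde10a (-0.61), neither past the threshold. The 10 cortical excitatory neuron markers had a median interaction of 0.36 and a saline median of -0.54, and Neurod2 and Nptx1 had interactions of 0.88 and 0.79, or 0.38 and 0.25 with no slide term. The amount of cortex in a dissection was not measured, and its part in the changes of single genes was not tested. For astrocytes the median interaction of 14 markers was 0.00, for microglia (12) -0.01 and for oligodendrocytes (11) 0.08. Gfap, the astrocyte filament gene, had an interaction of 0.37 (SE 0.306) with heroin day 12 replicate 1 at 11.31 and the other 11 arrays between 10.69 and 11.02. Ttr, made by choroid plexus, ran from 9.96 to 15.52 on heroin day 12, and Hba-a1, a haemoglobin gene, from 14.66 to 14.69, and the interaction of Ttr was -0.70 with an SE of 3.44. The interaction of Hba-a1 was -0.04 (adjusted p = 0.995), or 0.55 with no slide term.

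**Figure D4:**
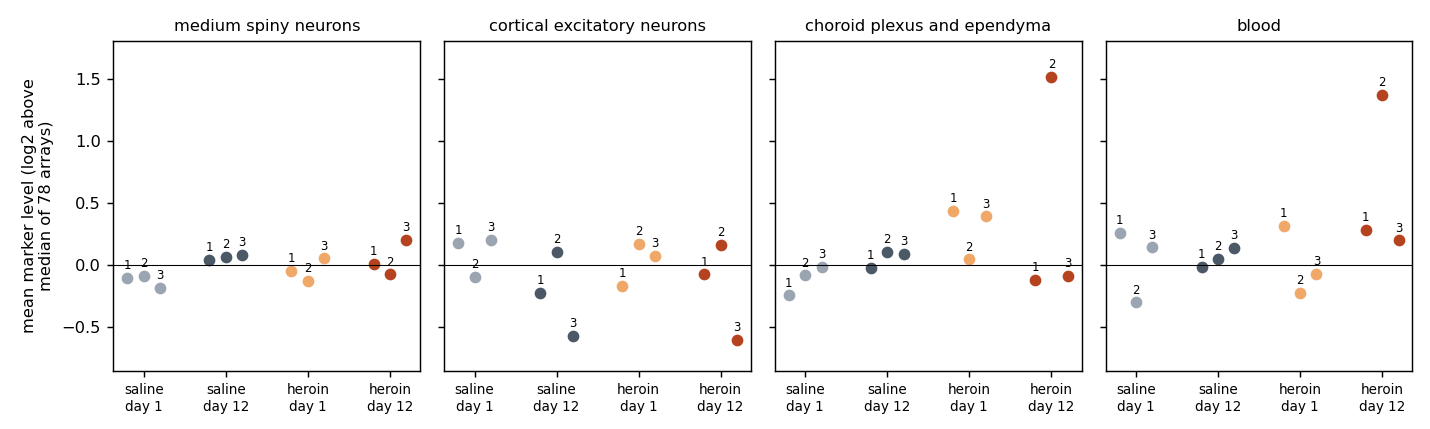
Mean level of the markers of 4 cell types (y axis, log2 units above the median of the 78 arrays) on each of the 12 arrays (numbered by replicate) in the 4 groups (x axis). Heroin day 12 replicate 2 stands at 1.52 for choroid plexus and 1.37 for blood, and heroin day 12 replicate 3 and saline day 12 replicate 3 at -0.60 and -0.57 for cortical neurons.

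Days 3 and 6 of the same treatment show where the day 12 levels lay along the course. Their arrays stand outside the day 12 minus day 1 contrast but shared in setting the slide terms and the spread of the fit that called the genes, so they are given as a description and not as independent support. For Ciart the heroin means were 9.45 ± 0.29, 9.74 ± 0.19, 10.15 ± 0.06 and 10.35 ± 0.29 on days 1, 3, 6 and 12 (SD, n = 3), and the saline means 9.44 ± 0.23, 9.18 ± 0.20, 9.18 ± 0.18 and 9.31 ± 0.20. Heroin lay above saline without overlap on days 3, 6 and 12. The 6 naive arrays ran from 8.75 to 9.28 with a median of 9.21, and on the first withdrawal day, labelled 13, the means were 9.78 under heroin and 9.21 under saline. Arntl ran the other way under heroin, through means of 10.02 ± 0.24, 9.77 ± 0.20, 9.59 ± 0.14 and 9.27 ± 0.48 (SD, n = 3), and stood at 9.87 on withdrawal day 13, against 9.85 under saline and a naive range of 9.94 to 10.25.

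Cirbp stood at heroin means of 10.03 ± 0.13, 10.10 ± 0.47, 10.60 ± 0.05 and 10.77 ± 0.21 (SD, n = 3), and its 3 arrays all lay above the saline range (9.81 to 10.45 over the 4 days) on days 6 and 12 but not on days 1 and 3. Its naive range was 9.92 to 10.26. Chordc1 kept close to saline on day 3 (11.16 ± 0.22 against 11.24 ± 0.10) and was lower on days 6 (10.71 ± 0.19 against 10.95 ± 0.08) and 12 (10.59 ± 0.24 against 10.90 ± 0.12; all SD, n = 3). Plin4 did not follow dose in order: its heroin means were 8.71, 9.73, 8.87 and 9.35 on days 1, 3, 6 and 12, with SDs of 0.35, 0.51, 0.47 and 0.21, and it was back at 7.62 ± 0.12 on withdrawal day 13, within the naive range of 7.40 to 7.99. Over the genes called on day 12, the heroin minus saline difference on day 6 had the same sign for 18 of the 22 that rose and all 18 that fell, where 50.04% and 49.96% of all genes had those signs. On day 3 the counts were 17 of 22 and 12 of 18, with 56.5% of all genes above and 43.5% below. On withdrawal day 13 they were 13 of 22 and 14 of 18, with 46.8% of all genes above and 53.2% below.

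**Figure D5:**
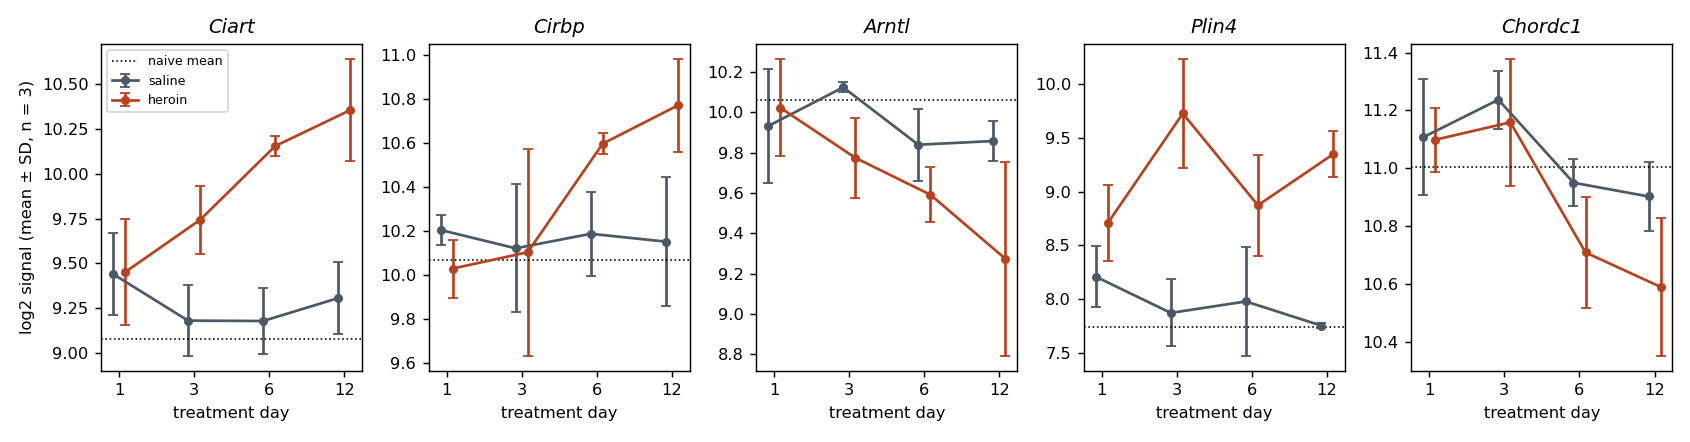
Mean log2 signal ± SD (y axis, n = 3 arrays) on treatment days 1, 3, 6 and 12 (x axis, evenly spaced) under saline (grey) and heroin (red) for Ciart, Cirbp, Arntl, Plin4 and Chordc1, with the mean of the 6 naive arrays dotted. The heroin means of Ciart run from 9.45 to 10.35 and those of Arntl from 10.02 to 9.27, while Plin4 is highest on day 3.

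The saline change, which stands for repeated injection, handling and time without drug, called Ramp1 and Rpp38. Ramp1, a partner protein of the calcitonin receptor family, rose by 0.39 (SE 0.0754, adjusted p = 0.0323) under saline and changed by 0.17 (adjusted p = 0.432) under heroin. Rpp38, a subunit of ribonuclease P, rose by 0.42 (adjusted p = 0.0323) under saline, from 8.42, 8.43 and 8.37 to 8.59, 8.82 and 8.63, and changed by -0.02 under heroin. Neither interaction passed the threshold, at -0.22 (adjusted p = 0.843) and -0.44 (adjusted p = 0.522). Without saline day 1 replicate 1 there were 7 genes called under saline, and without any one of the other 5 saline arrays none.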

How the data were processed

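Total RNA of striatum was labelled as biotinylated cRNA, per the labels' protocols. The deposited non-normalized table gives linear intensity values for 45281 probes on 78 arrays, per the file headers, and the deposited processed table gives log2 values. The software, background correction and normalization behind both are not given in the sources used here. No detection p-values were present, so a probe was kept if, in 1 or more of the 25 groups, it lay above the median of every array, which held for 23810 probes. By the platform annotation 34885 probes had a single symbol and were named, while 18 with several symbols and 10378 without one were not. For each gene the probe with the highest mean was used, 12371 genes in all, of which 5028 had several probes.

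Intensities were log2-transformed and then quantile-normalized. The linear model (limma 3.58.1 under R 4.3.3) took in 78 arrays, 25 group means and 13 slides, leaving 41 residual degrees of freedom. P-values are two-sided and were adjusted over all genes by Benjamini-Hochberg, with 0.05 as threshold. Slides, positions and chip lots were read from the array names in the labels. Heroin day 12 and saline day 1 shared slides 3, 6 and 12. Heroin day 1 lay on slides 2, 5 and 10, and saline day 12 on slides 4, 9 and 13. Each of these was tied to the other groups only through arrays outside the comparison. A slide effect shared by heroin day 12 and saline day 1 adds up in the interaction, where both have the same sign. Its removal rests on the slide terms. Saline day 12 lay on chip lot 2 alone, while replicate 1 of each other group lay on lot 1.

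Named genes were up to 8 per direction with the smallest p for the interaction where none passed, up to 5 per direction for heroin and for saline with the largest change among those that passed, up to 3 members of each of 29 lists, and a fixed set of stress, clock, opioid and marker genes. Further called genes, Arsg, Arrdc4, Arrdc2, Pik3ip1, Rbm11, Ccnl2, Fscn2, Fam120b, Tctex1d2, Uhrf2, Klhl24, Inpp4a, Xbp1 and Hdac5, were named after their values were seen. Genes and lists were chosen with earlier results of these data known. Overlap and time-course values are levels without slide adjustment. Promoters are from RefSeq (GRCm38.p6). The fit was tested on simulated arrays with 200 changed genes of 12371. Alternatives covered scaling, filter, probes, slide, position, lot, the replicate number as a block, array weights and each array left out. Leaving out methamphetamine day 1 together with the slide term, and heroin day 12 replicate 2 with saline day 1 replicate 3, were chosen after the data had been seen. Same-numbered arrays deviated together in 7 of 18 pairs (correlation over 0.1, range -0.30 to 0.79), so the number was not taken as pairing. Of these pairs, 3 shared a slide, with 2 over 0.1 and a highest value of 0.79. The 15 on different slides had 5 over 0.1 and reached 0.51.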

Additional observations from a re-analysis of the deposited data

How the results depend on the processing

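Of 30 alternatives, 24 left the interaction with 0 genes called. The exceptions were array weights (2 genes), the replicate number as a block with no slide term (1), leaving out methamphetamine day 1 together with the slide term (2), and 3 fits without 1 array, whose counts over the 12 arrays ranged from 0 to 1. The 40 genes called under heroin became 157 with the deposited log2 values (83 higher, 74 lower), 173 with median centring (13 higher, 160 lower, where the median of all genes was -0.09), 78 with no slide term, 140 with slide as a random block, 119 with array weights, 74 with the replicate block and no slide term, 81 without methamphetamine day 1 and no slide term, 4 on chip lot 2 alone, and 0 with array position as a term or on the 12 arrays only. Leaving out single arrays gave 2 to 54, and leaving out heroin day 12 replicate 2 with saline day 1 replicate 3 gave 56. With the replicate block beside the slide term there were 45, of which 36 were among the 40. The cause of these shifts was not tested. The 2 genes called under saline became 1 without methamphetamine day 1 or with robust variances, and 0 with the deposited values, median centring, no filter, all probes, no slide term, a random slide block, position as a term, lot 2 alone, either replicate block, the 12 arrays only, and both alternatives chosen after the data had been seen. Single arrays left out gave 0 to 7. Deposited log2 differences were smaller in scale, to an extent that varied by gene. The heroin change of Ciart was 0.50 in place of 0.94, and that of Gpr17 -0.16 in place of -0.75.

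Every named gene called under heroin kept its direction in all alternatives that measured it. Among 2365 interaction values of 79 selected genes, 58 changed sign, in 10 genes. With no slide term, also with the replicate block in its place, on the 12 arrays only or without methamphetamine day 1, these were Penk (-0.12), Pdyn (0.23), Ramp1 (0.0594), Egr1 (-0.18), Hspa5 (-0.0745) and Hba-a1 (0.55). With slide as a random block they were Pdyn (0.0426), Egr1 (-0.0581) and Hba-a1 (0.31), and with the replicate block beside the slide term Pdyn (0.0148) and Hba-a1 (0.0365). Array weights turned Fkbp5 (-0.0264) and Pdyn (0.0168), lot 2 alone Penk (-0.0331), Egr1 (-0.11) and Ttr (2.52), and the deposited values Hba-a1 (0.00235). Leaving out heroin day 12 replicate 2 with saline day 1 replicate 3 turned Pdyn (0.16) and Arc (0.24) and gave Ttr -2.14. With single arrays left out, the ranges were -0.23 to 0.21 for Hba-a1, -0.20 to 0.10 for Pdyn, -0.50 to 0.21 for Arc, -0.0237 to 0.20 for Egr1, -1.96 to 0.13 for Ttr, -0.0890 to 0.33 for Penk, -0.0777 to 0.12 for Fkbp5 and -0.50 to 0.0462 for Fos. Dim probes, such as those of Hspa1b, limit what can be seen of small changes.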
